A study of Mus musculus with 12 samples.

Results

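The genes described here encode the proteasome: the subunits of its 20S core and 19S regulator, its activators and inhibitor, its assembly factors, and NRF1 (Nfe2l1), a transcription factor of proteasome genes. Members were taken by name, as every symbol that starts with Psma to Psmg and a digit, plus Pomp and Nfe2l1, without the immunoproteasome subunits Psmb8, Psmb9 and Psmb10. That gave 48 of the 20793 entries of the table. One of them, Psmc3ip, matches by name only, and its product is no part of the proteasome. The testis subunit Psma8 and the thymus subunit Psmb11 stayed below 1 RPKM in all 12 libraries and were not tested, so 46 of 48 members passed the filter on low values. RPKM, the unit of the deposited values, is a read count scaled to transcript length and to the depth of the library.

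Lung RNA of C57BL/6J mice, an inbred strain, was sequenced in 4 groups of 3 libraries. The groups were a 60% fat diet with more than 95% oxygen, a 10% fat diet with more than 95% oxygen, a 60% fat diet in room air and a 10% fat diet in room air, with 12 weeks of diet in each group. The labels give no age, sex or length of exposure, and no animal is named for a library, so p-values measure the spread between these libraries, which may be technical. By its title, the study asked how obesity from diet bears on lung injury by high oxygen.

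The proteasome is the barrel-shaped protease that degrades proteins tagged with ubiquitin. Rings of alpha subunits gate the barrel and rings of beta subunits carry the active sites inside it. On its end sits the 19S regulator, whose lid removes ubiquitin and whose base recognises, unfolds and feeds in the substrate. Other caps can take the place of the 19S regulator: PA28 alpha and beta (Psme1 and Psme2), which interferon induces together with the immunoproteasome subunits, the nuclear PA28 gamma (Psme3) and PA200 (Psme4). The proteasome is also known to clear proteins damaged by oxidation.

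A rough depth of 18.3 to 24.3 M reads per library was inferred from low RPKM values on transcripts of at least 1000 bases. These were read as values of 1 read. The search began at an assumed depth and kept only values near the current estimate, so the range may depend on that start. At that depth the lowest value among the 41 members with a transcript length, apart from Psmc3ip, was a rough 166 reads, for Psmg3 in 10% fat oxygen replicate 3. Counting error is therefore part of the spread between libraries for the least abundant members. Pearson's r across genes between libraries of a group was 0.98 to 0.995. Scgb1a1, the secretory product of club cells, took 2.70% to 4.65% of the summed RPKM under oxygen, against 17.4% to 24.7% in room air. Of the markers of lung epithelium, 8 of 8 genes of alveolar type 2 cells and 4 of 4 of club cells were detected. All 7 listed genes of cardiac muscle passed the filter too, so detection alone does not check the labelled tissue. These epithelial markers moved with oxygen, with 7 of 8 and 4 of 4 lower on 60% fat and 6 of 8 and 3 of 4 lower on 10% fat. Summed RPKM of the type 2 list was 10518 to 13702 under oxygen, against 24735 to 36822 in room air, on 60% fat, and 13261 to 17116 against 24733 to 33206 on 10% fat. All 7 genes of cardiac muscle fell in both diets, with summed RPKM of 26.9 to 63.3 under oxygen, against 468 to 526 in room air, on 60% fat, and 45.5 to 103 against 327 to 446 on 10% fat; of these 7, Sln was listed at 0 in 60% fat oxygen replicate 2. The part of these shifts in the results on the proteasome was not tested, and in RNA of whole lung fewer cells of a type and less RNA per cell cannot be told apart.

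Under oxygen, 19 of the 31 tested genes of the 20S core and the 19S regulator rose in both diets and none fell, while the other 12 were not called in at least 1 diet. The interferon-linked activators Psme1 and Psme2 and the assembly factors Psmg1 and Psmd10 fell in both. The largest rise was that of the lid subunit Psmd8, 2.43-fold on 60% fat and 2.54-fold on 10% fat. All other rises were 1.68-fold or less. On the 60% fat diet 22 of 46 members rose and 4 fell, where 26.3% of all 13324 genes tested rose and 36.5% fell. On the 10% fat diet 23 rose and 5 fell, with a background of 25.3% and 34.2%. In both diets 21 members rose and 4 fell, where 21.6% and 29.8% of all genes did so. Oxygen and room-air groups did not overlap for 66.5% of all genes tested on 60% fat and 67.5% on 10% fat. Without overlap, 23 members were higher and 4 lower on 60% fat, against 28.3% and 38.2% of all genes. On 10% fat 27 were higher and 5 lower, against 28.7% and 38.8%. A rise or fall here is an adjusted p under 0.05 (limma on log2(RPKM + 0.5), Benjamini-Hochberg over all genes tested), and fold changes are on that scale.

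The log2 changes had a median of 0.21 over the members in each diet, against −0.09 over all genes tested on 60% fat and −0.08 on 10% fat. By role, the median was 0.47 on 60% fat and 0.40 on 10% fat for the lid, 0.32 and 0.22 for the base, and 0.23 and 0.30 for the 20S core. For the activators and the inhibitor the medians were 0.23 and 0.09, and for the assembly factors −0.07 and −0.14. All 31 tested members of the core and the 19S regulator had a positive log2 change in both diets. That was also so after median-ratio scaling, but after quantile normalization 5 of 31 on 60% fat and 7 of 31 on 10% fat were below 0, down to −0.09, and none of these was called.

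**Figure D1:**
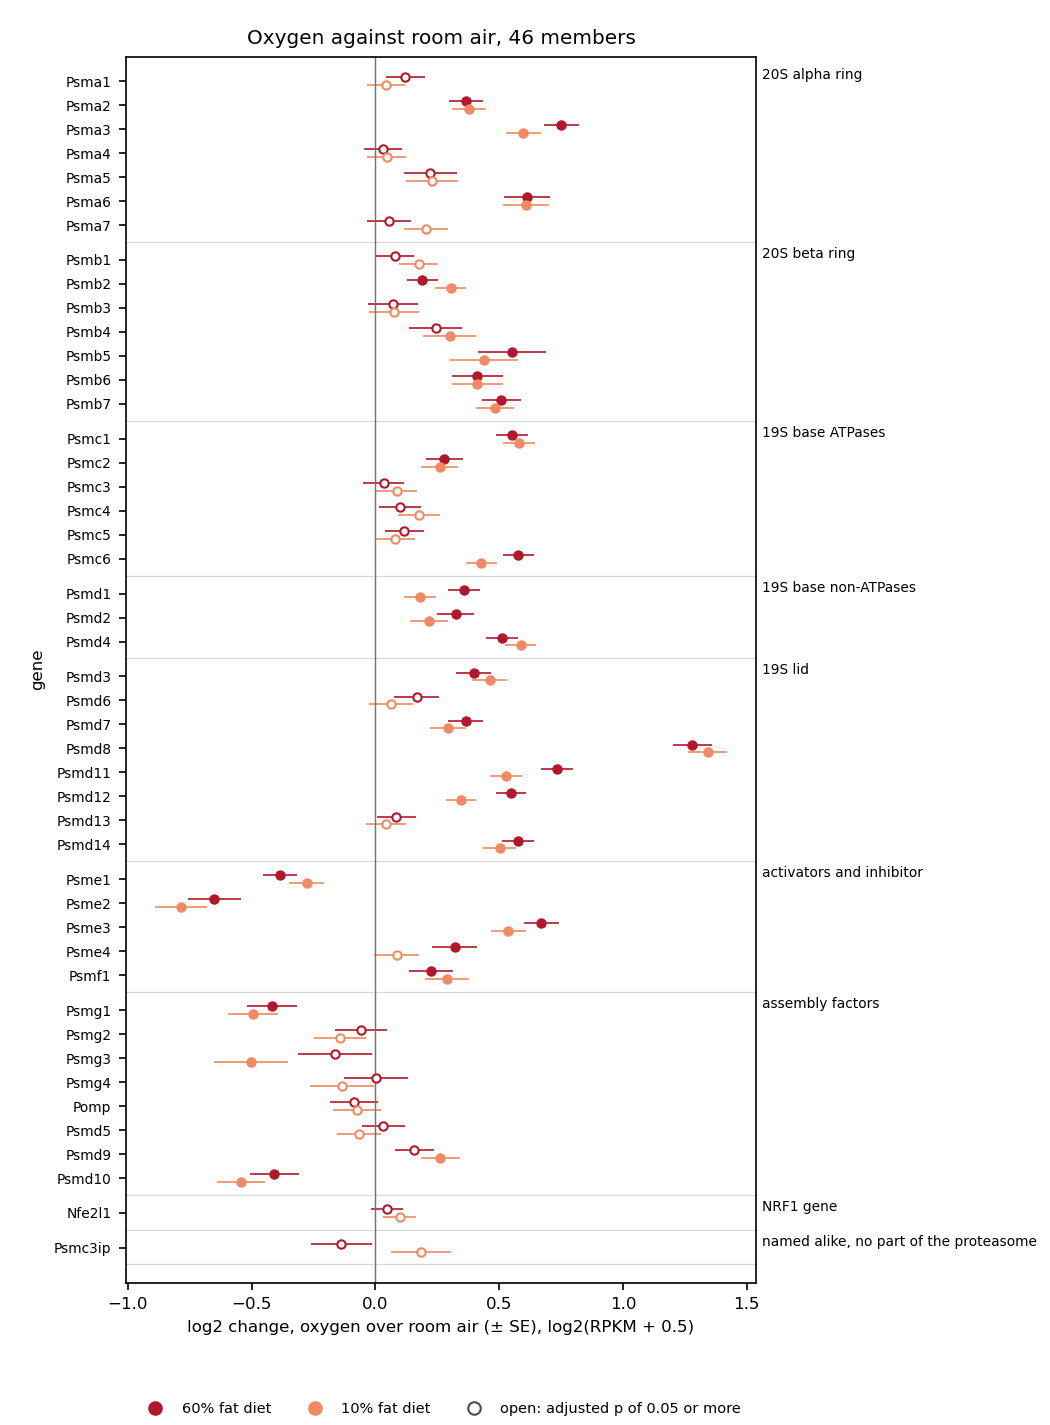
Log2 change under oxygen over room air of the 46 tested members, grouped by role, with its SE as a bar, on the 60% fat diet (dark) and on the 10% fat diet (light). Filled points have an adjusted p under 0.05; Psmd8 stands far to the right at 1.28 and 1.34, and the filled points left of 0 belong to activators and assembly factors.

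In the alpha ring, Psma2, Psma3 and Psma6 rose in both diets and Psma1, Psma4, Psma5 and Psma7 were not called in either, so 3 of 7 tested members rose. Psma3 stood at 139, 156 and 144 RPKM under oxygen, against 85.2, 87.7 and 87.1 in room air, on the 60% fat diet. Levels of Psma3 on 10% fat were 136, 134 and 136 RPKM under oxygen, against 81.8, 94.4 and 92.1 in room air. Every oxygen library lay above every room-air library (position chromosome 12, 72075609 to 72095910; log2 change 0.75 ± 0.07 SE, adjusted p = 2.62e-06, on 60% fat; 0.60 ± 0.07 SE, adjusted p = 1.91e-05, on 10% fat). Psma6 stood at 144, 149 and 141 RPKM under oxygen, against 81.9, 101 and 102 in room air, on the 60% fat diet. Levels of Psma6 on 10% fat were 139.6, 144 and 139.7 RPKM under oxygen, against 82.4, 97.3 and 98.8 in room air. The groups again did not overlap (chromosome 12, 56499811 to 56519446; log2 change 0.61 ± 0.09 SE, adjusted p = 0.000116, on 60% fat; 0.61 ± 0.09 SE, adjusted p = 0.000142, on 10% fat). Psma2 rose by 0.37 and 0.38. Among the members not called, the log2 change of Psma4 was 0.03 (95% confidence interval −0.14 to 0.20) on 60% fat and 0.05 (95% confidence interval −0.12 to 0.21) on 10% fat. That of Psma5 was 0.22 (95% confidence interval −0.01 to 0.45) and 0.23 (95% confidence interval −0.00 to 0.46), and without 60% fat room-air replicate 2 it was called in both diets (adjusted p = 0.00526 and 0.0248). Positions are as deposited, in mm8 or mm9; the submitters' processing notes list both without a role.

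The beta ring holds the 3 catalytic subunits, and all of them rose in both diets. Psmb5 stood at 138, 129 and 133 RPKM under oxygen, against 73.8, 111 and 90.5 in room air, on the 60% fat diet. Levels of Psmb5 on 10% fat were 126, 132 and 119 RPKM under oxygen, against 76.9, 97.7 and 105 in room air. Psmb5, the subunit with chymotrypsin-like activity, was higher in every oxygen library, and its room-air libraries were spread more widely than its oxygen libraries (chromosome 14, 55232956 to 55236832; log2 change 0.55 ± 0.14 SE, adjusted p = 0.00388, on 60% fat; 0.44 ± 0.14 SE, adjusted p = 0.0157, on 10% fat). On 10% fat the call was lost without oxygen replicate 2 (adjusted p = 0.0524) or room-air replicate 1 (0.0704). Psmb6 stood at 127, 129 and 119 RPKM under oxygen, against 88.1, 111 and 84.3 in room air, on the 60% fat diet. Levels of Psmb6 on 10% fat were 129, 129 and 116 RPKM under oxygen, against 84.3, 97.5 and 99.1 in room air. Psmb6, the caspase-like subunit, had oxygen libraries above all room-air libraries in both diets (chromosome 11, 70338858 to 70341360; log2 change 0.41 ± 0.10 SE, adjusted p = 0.00407, on 60% fat; 0.41 ± 0.10 SE, adjusted p = 0.00439, on 10% fat). Psmb7 stood at 111, 121 and 114 RPKM under oxygen, against 74.7, 85.7 and 82.9 in room air, on the 60% fat diet. Levels of Psmb7 on 10% fat were 119, 113 and 114 RPKM under oxygen, against 75.9, 82.7 and 89.0 in room air. Psmb7, the trypsin-like subunit, likewise had no overlap and had the smallest SE of the 3 (chromosome 2, 38443565 to 38499426; log2 change 0.51 ± 0.08 SE, adjusted p = 0.00012, on 60% fat; 0.48 ± 0.08 SE, adjusted p = 0.000199, on 10% fat).

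Of the structural beta subunits, Psmb2 rose in both diets. Psmb2 stood at 111, 113 and 107 RPKM under oxygen, against 95.4, 100.5 and 95.0 in room air, on the 60% fat diet. Levels of Psmb2 on 10% fat were 112, 103 and 104 RPKM under oxygen, against 82.9, 87.2 and 87.9 in room air. The groups did not overlap (chromosome 4, 126354886 to 126386959; log2 change 0.19 ± 0.06 SE, adjusted p = 0.0191, on 60% fat; 0.31 ± 0.06 SE, adjusted p = 0.00113, on 10% fat), though on 60% fat the call was lost without oxygen replicate 2 (adjusted p = 0.0657) or room-air replicate 3 (0.0626). Psmb4 was called on 10% fat (log2 change 0.30, adjusted p = 0.0288) but not on 60% fat (0.24, adjusted p = 0.0641), a difference between diets that the interaction did not call. Its call on 10% fat was lost without any one oxygen replicate or room-air replicate 1 of that diet (adjusted p up to 0.121). Psmb1 and Psmb3 were not called. In all, 4 of 7 tested beta members rose on 60% fat and 5 of 7 on 10% fat, and none of the alpha or beta members fell.

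The 6 ATPases of the base, which unfold the substrate, split evenly: Psmc1, Psmc2 and Psmc6 rose in both diets, and Psmc3, Psmc4 and Psmc5 were not called in either. Psmc1 stood at 112, 109.9 and 112 RPKM under oxygen, against 74.2, 80.8 and 72.5 in room air, on the 60% fat diet. Levels of Psmc1 on 10% fat were 111, 103 and 109.6 RPKM under oxygen, against 70.9, 73.9 and 71.0 in room air. Psmc1, whose product helps to open the gate of the barrel, had no overlap between the groups (chromosome 12, 101350540 to 101361574; log2 change 0.55 ± 0.06 SE, adjusted p = 1.37e-05, on 60% fat; 0.58 ± 0.06 SE, adjusted p = 1.12e-05, on 10% fat). Psmc6 stood at 81.5, 88.1 and 87.1 RPKM under oxygen, against 59.3, 55.0 and 57.2 in room air, on the 60% fat diet. Levels of Psmc6 on 10% fat were 80.9, 79.8 and 84.6 RPKM under oxygen, against 58.9, 60.5 and 62.6 in room air. Here too the groups were far apart (chromosome 14, 45949498 to 45968746; log2 change 0.58 ± 0.06 SE, adjusted p = 7.86e-06, on 60% fat; 0.43 ± 0.06 SE, adjusted p = 9.65e-05, on 10% fat). Psmc3 changed by 0.03 (95% confidence interval −0.15 to 0.21) and 0.09 (95% confidence interval −0.09 to 0.27).

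The 3 other base subunits taken by name all rose in both diets. Adrm1, a base subunit outside the name rule, rose in both as well (log2 change 0.69 on 60% fat and 0.64 on 10% fat). Psmd4 stood at 114, 122 and 122 RPKM under oxygen, against 80.7, 89.9 and 80.7 in room air, on the 60% fat diet. Levels of Psmd4 on 10% fat were 115, 115 and 116 RPKM under oxygen, against 77.7, 76.3 and 76.0 in room air. Psmd4 encodes the ubiquitin receptor known in yeast as Rpn10, and its groups did not overlap (chromosome 3, 94836626 to 94846467; log2 change 0.51 ± 0.06 SE, adjusted p = 2.31e-05, on 60% fat; 0.59 ± 0.06 SE, adjusted p = 9.66e-06, on 10% fat). Psmd2 stood at 83.4, 85.7 and 76.6 RPKM under oxygen, against 61.4, 69.0 and 65.6 in room air, on the 60% fat diet. Levels of Psmd2 on 10% fat were 81.1, 79.6 and 75.7 RPKM under oxygen, against 62.9, 68.1 and 72.4 in room air. Psmd2, a scaffold subunit, was higher in every oxygen library (chromosome 16, 20651724 to 20663487; log2 change 0.32 ± 0.08 SE, adjusted p = 0.00255, on 60% fat; 0.22 ± 0.08 SE, adjusted p = 0.0258, on 10% fat), and on 10% fat its call was lost without oxygen replicate 1 or 2 or room-air replicate 1 or 2 (adjusted p up to 0.0975). Psmd1 stood at 58.6, 62.1 and 61.3 RPKM under oxygen, against 49.7, 44.2 and 48.1 in room air, on the 60% fat diet. Levels of Psmd1 on 10% fat were 56.8, 57.0 and 54.5 RPKM under oxygen, against 49.3, 48.5 and 50.6 in room air. Psmd1, the other scaffold subunit (chromosome 1, 87961193 to 88035870), shares 12935 bases of its locus with Htr2b, whose level was low (1.70 RPKM on average), and the sources used here do not state whether counting used strand. It rose (log2 change 0.36 ± 0.06 SE, adjusted p = 0.000402, on 60% fat; 0.18 ± 0.06 SE, adjusted p = 0.0283, on 10% fat), and on 10% fat leaving out oxygen replicate 1 or 2 or room-air replicate 1 or 2 ended the call (adjusted p up to 0.081).

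In the lid 6 of 8 members rose in both diets. Psmd8 stood at 174, 188 and 187 RPKM under oxygen, against 72.0, 80.1 and 73.5 in room air, on the 60% fat diet. Levels of Psmd8 on 10% fat were 180.3, 177 and 182 RPKM under oxygen, against 63.7, 71.1 and 77.5 in room air. Psmd8, the Rpn12 subunit that joins the lid last in yeast, was more abundant in every oxygen library than in any room-air library, by a wide margin (chromosome 7, 29959205 to 29965692; log2 change 1.28 ± 0.08 SE, adjusted p = 1.02e-07, on 60% fat; 1.34 ± 0.08 SE, adjusted p = 1.13e-07, on 10% fat). Psmd11 stood at 59.5, 59.8 and 59.5 RPKM under oxygen, against 37.8, 33.1 and 36.3 in room air, on the 60% fat diet. Levels of Psmd11 on 10% fat were 56.4, 56.1 and 58.1 RPKM under oxygen, against 40.0, 37.6 and 40.5 in room air. Psmd11, the Rpn6 subunit that braces the regulator on the core, separated just as cleanly (chromosome 11, 80242116 to 80285635; log2 change 0.73 ± 0.07 SE, adjusted p = 1.77e-06, on 60% fat; 0.53 ± 0.07 SE, adjusted p = 2.81e-05, on 10% fat). Psmd14, the deubiquitinase that cuts ubiquitin chains off the substrate, rose by 0.58 and 0.50, and Psmd12 by 0.55 and 0.35. Psmd3 and Psmd7 rose by 0.29 to 0.46. The lid members not called were Psmd6 and Psmd13, with 0.09 (95% confidence interval −0.09 to 0.26) and 0.04 (95% confidence interval −0.13 to 0.22) for Psmd13.

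Promoters are shown for the member that rose most, for the catalytic subunits whose windows held an antioxidant response element core, and for Psme1, of the 2 activators that fell the one with an interferon-type repeat in its window. Each line gives a RefSeq window of 300 bases (GRCm38.p6), most of it before the start site, read in the direction of transcription. Capitals mark TGACNNNGC in Psmb5 and Psmb6 and GAAANNGAA, here on the other strand, in Psme1; for Psmd8 no motif is marked. The windows lie at chr7:29180624-29180923, minus strand, at chr14:54617946-54618245, minus strand, at chr11:70525107-70525406, plus strand and at chr14:55578244-55578543, plus strand.
Psmd8: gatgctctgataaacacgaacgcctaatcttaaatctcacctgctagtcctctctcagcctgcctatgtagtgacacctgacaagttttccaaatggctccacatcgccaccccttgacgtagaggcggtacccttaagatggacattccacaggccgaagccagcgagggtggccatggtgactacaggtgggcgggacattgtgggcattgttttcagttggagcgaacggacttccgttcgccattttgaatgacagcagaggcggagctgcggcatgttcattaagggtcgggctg
Psmb5: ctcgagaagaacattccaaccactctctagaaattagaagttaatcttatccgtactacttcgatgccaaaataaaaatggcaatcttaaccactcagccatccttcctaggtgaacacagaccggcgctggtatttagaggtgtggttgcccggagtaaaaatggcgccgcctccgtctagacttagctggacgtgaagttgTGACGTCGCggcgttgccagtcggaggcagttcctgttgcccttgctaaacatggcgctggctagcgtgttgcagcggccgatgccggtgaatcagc
Psmb6: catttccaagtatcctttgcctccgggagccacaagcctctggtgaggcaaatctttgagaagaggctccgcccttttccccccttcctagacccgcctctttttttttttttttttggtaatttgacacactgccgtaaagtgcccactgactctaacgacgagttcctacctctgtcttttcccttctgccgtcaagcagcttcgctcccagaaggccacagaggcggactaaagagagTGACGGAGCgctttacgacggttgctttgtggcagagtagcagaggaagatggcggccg
Psme1: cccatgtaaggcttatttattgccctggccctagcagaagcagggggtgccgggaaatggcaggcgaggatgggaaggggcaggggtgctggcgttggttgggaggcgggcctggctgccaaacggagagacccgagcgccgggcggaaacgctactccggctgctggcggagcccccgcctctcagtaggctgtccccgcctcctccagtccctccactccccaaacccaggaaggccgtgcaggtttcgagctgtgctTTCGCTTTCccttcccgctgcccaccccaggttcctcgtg

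The 3 motifs were counted in the members' windows beside those of all genes, with no test. Of the 48 members, 40 matched a RefSeq window outside chromosome 18, where Psma8 and Psmg2 lie. Members' windows on that chromosome were left out, while none were left out for all genes. Searched on both strands, TGACNNNGC stood in 6 of the 40 (15%), those of Psmb5, Psmb6, Psmc6, Psmd12, Psmd9 and Psme4, against 14.0% of 27025 genes. CCAAT stood in 15 of 40 (37.5%), against 41.1% of genes. GAAANNGAA stood in 8 of 40 (20%), against 9.76% of genes, and the 8 were Pomp, Psmb3, Psmb4, Psmc2, Psmd4, Psmd9, Psme1 and Psmg4. Of the 17 matched members that rose in both diets, 4 held TGACNNNGC, 8 held CCAAT and 2 held GAAANNGAA. Psme2, which fell further than Psme1, held no match of GAAANNGAA in either of its 2 windows. Overlaps between matches of different motifs were not removed, and a match describes letters, not binding.

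Activators went in opposite directions. Psme3 rose in both diets, Psme4 on 60% fat, and Psme1 and Psme2 fell in both. Psme3 stood at 44.8, 49.5 and 48.0 RPKM under oxygen, against 30.0, 27.4 and 31.6 in room air, on the 60% fat diet. Levels of Psme3 on 10% fat were 43.6, 45.4 and 42.1 RPKM under oxygen, against 29.3, 30.9 and 29.6 in room air. All oxygen libraries were above all room-air libraries (chromosome 11, 101177564 to 101184844; log2 change 0.67 ± 0.07 SE, adjusted p = 7.05e-06, on 60% fat; 0.54 ± 0.07 SE, adjusted p = 4.84e-05, on 10% fat). Psme1 stood at 114, 119.6 and 120.5 RPKM under oxygen, against 156, 157 and 149.8 in room air, on the 60% fat diet. Levels of Psme1 on 10% fat were 118, 109.5 and 101 RPKM under oxygen, against 134, 134 and 130.0 in room air. The order was the reverse, with every oxygen library below every room-air library of its diet (chromosome 14, 56197330 to 56200364; log2 change −0.38 ± 0.07 SE, adjusted p = 0.000396, on 60% fat; −0.28 ± 0.07 SE, adjusted p = 0.00409, on 10% fat). Psme2 stood at 75.8, 82.3 and 77.7 RPKM under oxygen, against 111, 138 and 123 in room air, on the 60% fat diet. Levels of Psme2 on 10% fat were 77.1, 73.4 and 59.3 RPKM under oxygen, against 112, 119 and 129 in room air. Psme2 fell further than Psme1 (chromosome 14, 56206276 to 56209938; log2 change −0.65 ± 0.11 SE, adjusted p = 0.000199, on 60% fat; −0.78 ± 0.11 SE, adjusted p = 5.31e-05, on 10% fat), and its value is uncertain, because the mouse genome holds a near-identical copy, Psme2b, whose reads may be shared with it.

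Psme4 stood at 19.5, 19.2 and 19.9 RPKM under oxygen, against 16.4, 13.4 and 17.1 in room air, on the 60% fat diet. Levels of Psme4 on 10% fat were 19.8, 18.5 and 19.2 RPKM under oxygen, against 18.6, 16.8 and 18.7 in room air. The groups were apart on 60% fat and overlapped on 10% fat (chromosome 11, 30671774 to 30780361; log2 change 0.32 ± 0.09 SE, adjusted p = 0.00844, on 60% fat; 0.09 ± 0.09 SE, adjusted p = 0.437, on 10% fat), and the interaction was not called (0.23, adjusted p = 0.57). Psmf1 stood at 11.4, 11.4 and 11.2 RPKM under oxygen, against 10.1, 8.79 and 9.91 in room air, on the 60% fat diet. Levels of Psmf1 on 10% fat were 10.6, 9.73 and 10.3 RPKM under oxygen, against 9.14, 7.45 and 8.29 in room air. Psmf1, which encodes the inhibitor PI31, was higher by a small margin (chromosome 2, 151541797 to 151567029; log2 change 0.23 ± 0.09 SE, adjusted p = 0.0435, on 60% fat; 0.29 ± 0.09 SE, adjusted p = 0.0143, on 10% fat). Its call on 60% fat was lost in 11 of 22 alternatives, among them leaving out any oxygen replicate or room-air replicate 2 or 3 of that diet (adjusted p up to 0.125). On 10% fat it was lost without oxygen replicate 1 (0.0526) or room-air replicate 2 (0.0695).

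**Figure D2:**
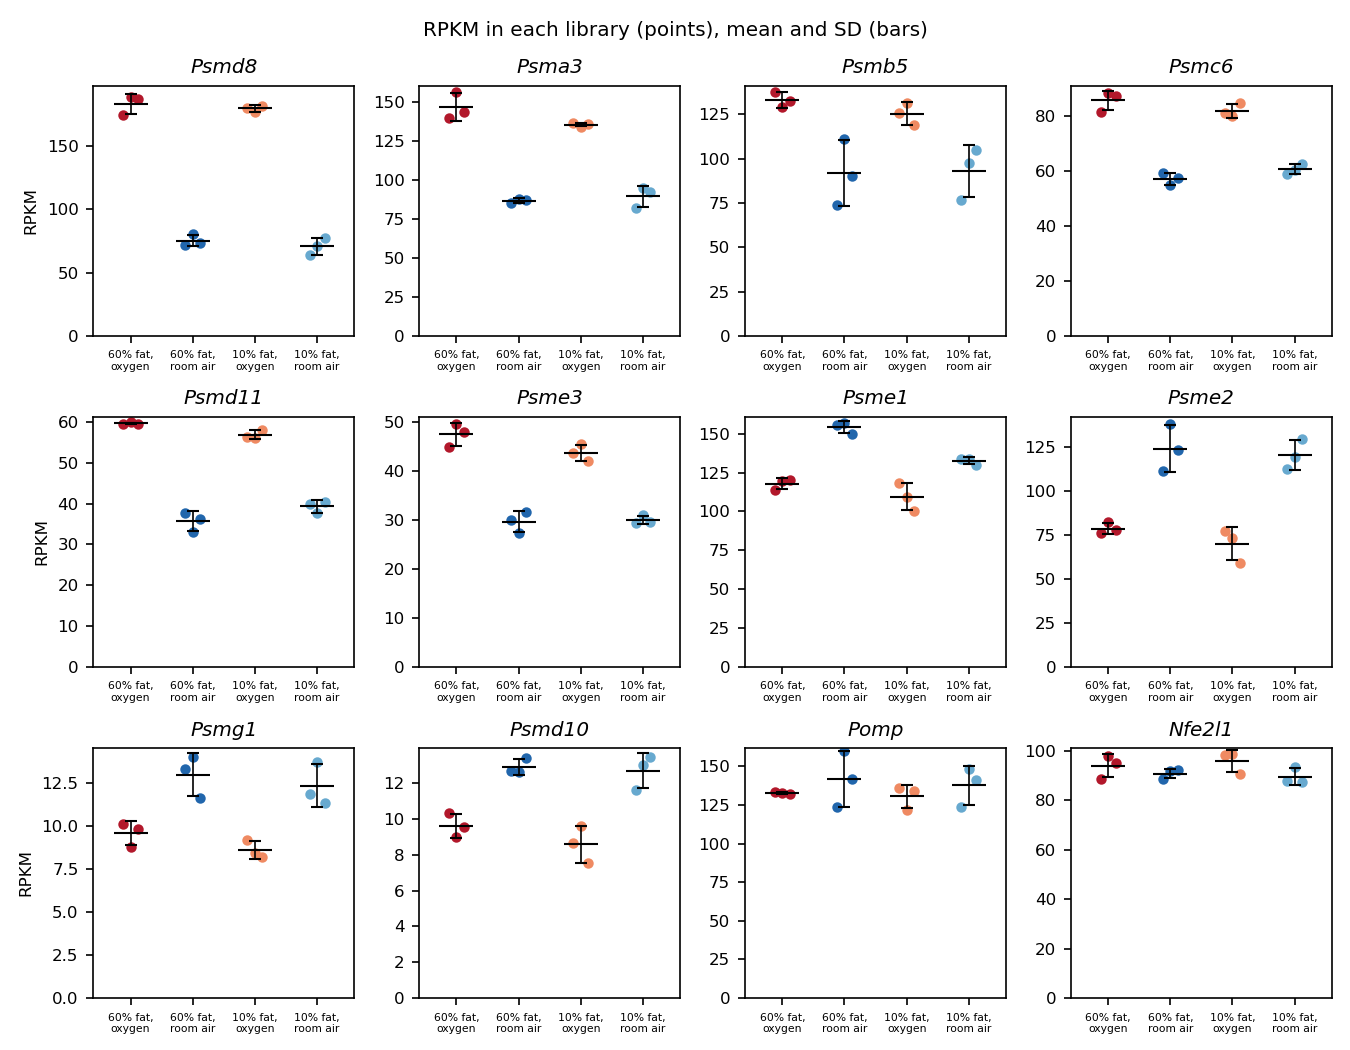
RPKM of 12 members in each library (points), with the group mean and SD as bars, in the order 60% fat oxygen, 60% fat room air, 10% fat oxygen, 10% fat room air. Psmd8, Psma3, Psmc6, Psmd11 and Psme3 are higher under oxygen without overlap, Psme1, Psme2, Psmg1 and Psmd10 are lower without overlap, and Pomp and Nfe2l1 overlap.

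The immunoproteasome subunits, which replace the 3 catalytic subunits, are the genes nearest in role that were left out of the members. All 3 fell in both diets, opposite to their counterparts. Psmb8, which takes the place of Psmb5, had 34.8 RPKM on average under oxygen, against 66.1 in room air, on 60% fat, and 33.9 against 59.2 on 10% fat (log2 change −0.92 on 60% fat and −0.80 on 10% fat). Psmb9, the counterpart of Psmb6, had 18.7 RPKM on average under oxygen, against 46.5 in room air, on 60% fat, and 18.9 against 38.3 on 10% fat (log2 change −1.29 on 60% fat and −1.0 on 10% fat). Psmb10, the counterpart of Psmb7, had 22.2 RPKM on average under oxygen, against 50.7 in room air, on 60% fat, and 21.6 against 44.6 on 10% fat (log2 change −1.17 on 60% fat and −1.04 on 10% fat). In a leukocyte list that holds mostly lymphocyte genes, 7 of 8 fell on 60% fat and 5 of 8 on 10% fat. Of all genes tested, 36.5% and 34.2% fell. The summed RPKM of the 8 leukocyte markers was 70.0 to 77.7 under oxygen, against 101 to 206 in room air, on 60% fat. On 10% fat it was 50.1 to 64.1 against 79.1 to 101. None of the 8 was at 0 in any library. Macrophage and neutrophil markers did not move as one: of 6, 2 rose and 1 fell on 60% fat and 0 rose and 1 fell on 10% fat (medians −0.02 and −0.31). Their summed RPKM was 297 to 596 under oxygen, against 856 to 3472 in room air, on 60% fat, and 205 to 1712 against 496 to 2872 on 10% fat, and none of the 6 was at 0 in any library. These sums weigh the most abundant of the 6 genes most and varied widely within a group, so they need not follow the medians. Markers of other cells fell too. All 3 tested ciliated genes fell in both diets (medians −0.83 and −0.98). Of 5 endothelial genes, 4 fell and 1 rose on 60% fat, and 2 fell and 0 rose on 10% fat. The part of leukocytes in the fall of Psme1, Psme2 and the immunoproteasome genes was not tested.

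A ratio of 2 genes within a library does not depend on the scaling between libraries. Psmb5 over Psmb8 was 4.55, 3.65 and 3.42 under oxygen, against 1.15, 1.75 and 1.28 in room air, on 60% fat. Psmb5 over Psmb8 was 3.56, 3.77 and 3.76 under oxygen, against 1.28, 1.72 and 1.73 in room air, on 10% fat. Psmb6 over Psmb9 was 7.16, 6.57 and 6.35 under oxygen, against 1.98, 2.49 and 1.67 in room air, on 60% fat. Psmb6 over Psmb9 was 6.50, 6.31 and 7.08 under oxygen, against 1.93, 2.66 and 2.85 in room air, on 10% fat. Psmb7 over Psmb10 was 5.41, 5.34 and 4.88 under oxygen, against 1.58, 1.59 and 1.64 in room air, on 60% fat. Psmb7 over Psmb10 was 5.52, 4.37 and 6.52 under oxygen, against 1.65, 1.85 and 2.07 in room air, on 10% fat. No oxygen library overlapped a room-air library in any of the 3 ratios. The ratios are given as a description. An exact permutation test was run on these 3 ratios, but its p is not used, since the ratios follow from the changes of the single genes given above. The oxygen libraries lay above the room-air libraries by a log2 difference of 1.37, 1.58 and 1.62, averaged over the diets. Psme3 over Psme1 averaged 0.402 ± 0.0107 under oxygen, against 0.193 ± 0.0181 in room air, on 60% fat, and 0.40 ± 0.0276 against 0.226 ± 0.00616 on 10% fat (SD, n = 3 each).

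**Figure D3:**
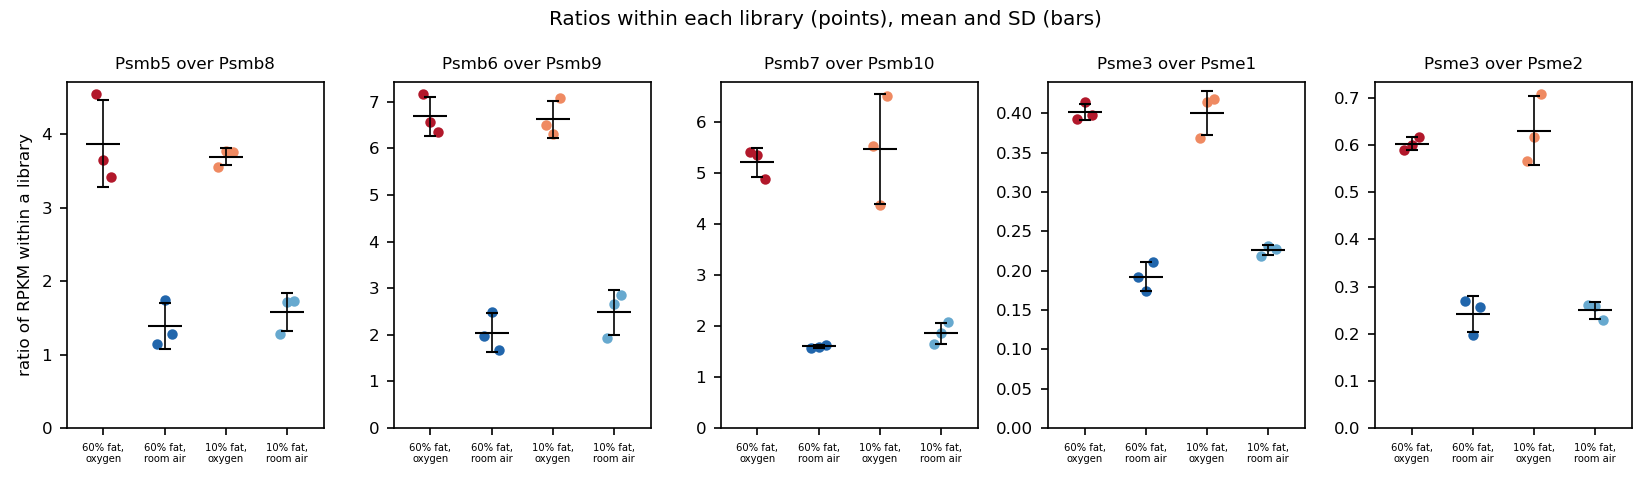
Ratio of RPKM of 2 genes in each library (points), with the group mean and SD as bars, for the catalytic subunits over their immunoproteasome counterparts and for Psme3 over Psme1 and Psme2. Every oxygen library lies above every room-air library in each panel, for example at 3.42 to 4.55 against 1.15 to 1.75 for Psmb5 over Psmb8 on 60% fat.

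Among the assembly factors, which build the rings and the base, few members rose. On 60% fat 2 of 8 fell and none rose; on 10% fat 3 fell and 1 rose. The share that fell was thus no larger than, or close to, the 36.5% and 34.2% of all genes that did, and the share that rose was below the 26.3% and 25.3% of all genes. Psmg1 stood at 10.2, 8.81 and 9.83 RPKM under oxygen, against 13.4, 14.0 and 11.6 in room air, on the 60% fat diet. Levels of Psmg1 on 10% fat were 9.20, 8.42 and 8.20 RPKM under oxygen, against 11.9, 13.8 and 11.4 in room air. Psmg1, a chaperone of alpha ring assembly, was lower in every oxygen library (chromosome 16, 96201541 to 96212510; log2 change −0.42 ± 0.10 SE, adjusted p = 0.00307, on 60% fat; −0.49 ± 0.10 SE, adjusted p = 0.00108, on 10% fat). Psmd10 stood at 10.3, 8.98 and 9.57 RPKM under oxygen, against 12.7, 12.6 and 13.4 in room air, on the 60% fat diet. Levels of Psmd10 on 10% fat were 8.63, 9.59 and 7.53 RPKM under oxygen, against 11.6, 13.0 and 13.5 in room air. Psmd10, also called gankyrin, a chaperone of the base, was lower likewise (chromosome X, 137482963 to 137491250; log2 change −0.41 ± 0.10 SE, adjusted p = 0.00312, on 60% fat; −0.54 ± 0.10 SE, adjusted p = 0.000473, on 10% fat). Psmg3 fell on 10% fat (log2 change −0.50, adjusted p = 0.0115; 0.0534 without oxygen replicate 3 of that diet) and not on 60% fat (−0.16, adjusted p = 0.358).

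Psmd9 stood at 11.2, 11.6 and 11.3 RPKM under oxygen, against 10.5, 10.2 and 9.71 in room air, on the 60% fat diet. Levels of Psmd9 on 10% fat were 11.5, 10.4 and 11.7 RPKM under oxygen, against 9.06, 8.80 and 9.85 in room air. Psmd9, another chaperone of the base, was the assembly factor that rose, on 10% fat, although the groups were apart in both diets (chromosome 5, 123678198 to 123700134; log2 change 0.16 ± 0.08 SE, adjusted p = 0.0957, on 60% fat; 0.26 ± 0.08 SE, adjusted p = 0.0115, on 10% fat). Pomp stood at 133, 133 and 132 RPKM under oxygen, against 123, 159.9 and 142 in room air, on the 60% fat diet. Levels of Pomp on 10% fat were 136, 122 and 134 RPKM under oxygen, against 124, 148 and 141 in room air. Pomp, which drives the joining of half-barrels, overlapped between the groups and was not called (chromosome 5, 148672203 to 148687354; log2 change −0.09 ± 0.10 SE, adjusted p = 0.453, on 60% fat; −0.07 ± 0.10 SE, adjusted p = 0.534, on 10% fat); only after quantile normalization was it called lower (adjusted p = 0.0191 on 60% fat and 0.0254 on 10% fat). Psmg2, Psmg4 and Psmd5 were not called.

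Nfe2l1 stood at 88.8, 98.0 and 95.1 RPKM under oxygen, against 88.5, 91.7 and 92.2 in room air, on the 60% fat diet. Levels of Nfe2l1 on 10% fat were 98.3, 98.7 and 90.6 RPKM under oxygen, against 87.8, 93.4 and 87.4 in room air. NRF1, the product of Nfe2l1, is known to be controlled mainly after translation, by processing of a precursor held at the endoplasmic reticulum. Its mRNA overlapped between the groups (chromosome 11, 96678727 to 96691282; log2 change 0.05 ± 0.07 SE, adjusted p = 0.551, on 60% fat; 0.10 ± 0.07 SE, adjusted p = 0.219, on 10% fat). Psmc3ip was not called either (log2 change −0.14 and 0.19).

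Averaged over the members of a role, the log2 level of each library was compared with the mean of the room-air libraries of its diet. For the lid it was 0.49 to 0.54 higher in the 60% fat oxygen libraries and 0.41 to 0.48 higher in those on 10% fat, while the room-air libraries lay between −0.06 and 0.06. In the alpha ring the oxygen libraries were 0.29 to 0.34 and 0.27 to 0.32 higher, and in the beta ring 0.27 to 0.31 and 0.26 to 0.36 higher. Room-air libraries were more widely spread in the beta ring (−0.16 to 0.16). Assembly factors lay at −0.13 to −0.10 and −0.27 to −0.17 under oxygen, against −0.09 to 0.13 in room air. Activators and the inhibitor, whose members moved both ways, lay at 0.00 to 0.06 and −0.11 to 0.04. All 48 members together took 0.658% to 0.706% of the summed RPKM under oxygen, against 0.462% to 0.498% in room air, a share that also moves with that of Scgb1a1.

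**Figure D4:**
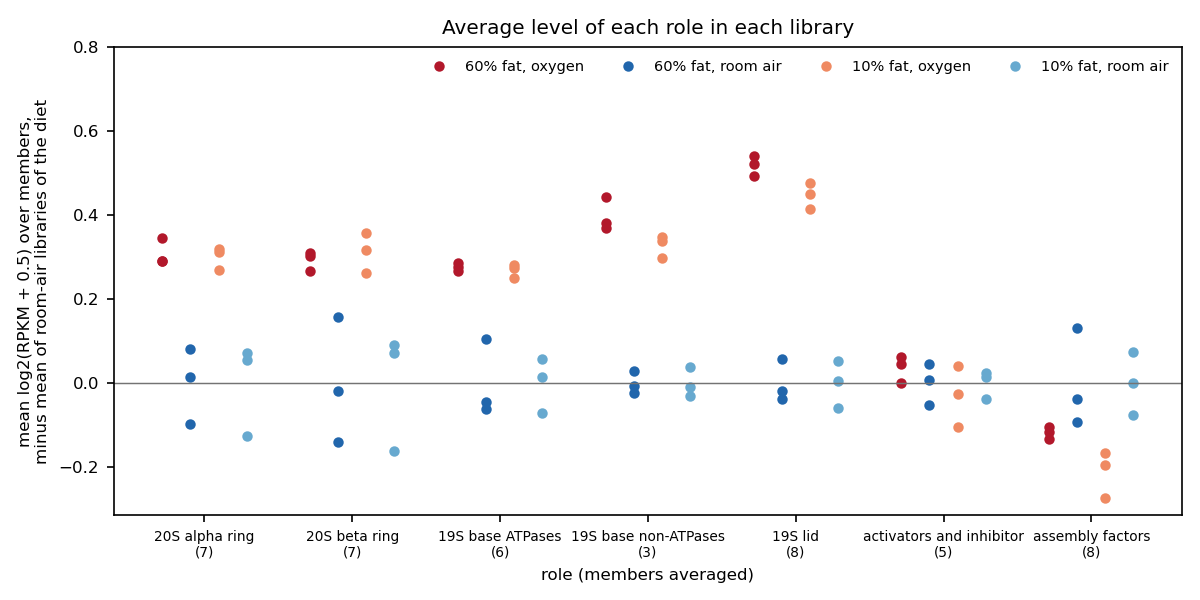
Mean log2(RPKM + 0.5) over the tested members of each role, minus the mean of the room-air libraries of the same diet, one point per library in 4 groups. Core and 19S roles lie at 0.25 or above in every oxygen library, the assembly factors lie at −0.13 to −0.10 on 60% fat and −0.27 to −0.17 on 10% fat under oxygen, and the activators and inhibitor lie at −0.11 to 0.06 there.

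Among 19 tested factors that bind the proteasome or deliver ubiquitinated proteins to it (of 20 listed), 10 rose and 3 fell on 60% fat and 8 rose and 5 fell on 10% fat, with medians of 0.28 and 0.13. Beside all genes, of which 26.3% rose and 36.5% fell on 60% fat and 25.3% and 34.2% did so on 10% fat, a larger share of these factors rose and a smaller share fell. The gene lists were chosen with earlier results of these data known, and the difference in shares was not tested. Those with the smallest p were Rad23b, a shuttle for ubiquitinated proteins (log2 change 1.11 on 60% fat and 0.87 on 10% fat), Usp14, a deubiquitinase bound to the base (log2 change 0.81 on 60% fat and 0.47 on 10% fat), Txnl1, a thioredoxin-like protein of the 19S regulator (log2 change 0.72 on 60% fat and 0.49 on 10% fat), Nploc4, a cofactor of VCP (log2 change 0.57 on 60% fat and 0.41 on 10% fat), and Adrm1, a ubiquitin receptor of the base (log2 change 0.69 on 60% fat and 0.64 on 10% fat). Of the ubiquilin shuttles, Ubqln2 (log2 change −0.32 on 60% fat and −0.39 on 10% fat) and Ubqln4 (log2 change −0.23 on 60% fat and −0.41 on 10% fat) fell in both diets. Of 12 tested regulators and partners of NRF1, 4 rose and 2 fell on 60% fat and 3 rose and 2 fell on 10% fat (medians 0.21 and 0.06), so the shares that rose were near those of all genes given above and the shares that fell were below them. Small Maf genes, whose products pair with NRF1 and NRF2, rose: Maff (log2 change 2.25 on 60% fat and 1.39 on 10% fat), Mafk (log2 change 1.29 on 60% fat and 1.13 on 10% fat) and Mafg (log2 change 0.84 on 60% fat and 0.62 on 10% fat). Nfe2l2, which encodes NRF2, fell (log2 change −0.53 on 60% fat and −0.92 on 10% fat), as did Syvn1, a ubiquitin ligase of the endoplasmic reticulum (log2 change −0.56 on 60% fat and −0.84 on 10% fat).

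The 7 ubiquitin and E1 genes went both ways, 2 higher and 3 lower on 60% fat and 2 higher and 1 lower on 10% fat (medians −0.06 and −0.01), shares close to those of all genes apart from the fewer falls on 10% fat. Uba6, an E1 enzyme that activates ubiquitin, fell (log2 change −0.61 on 60% fat and −1.04 on 10% fat). Ubb, which encodes ubiquitin, fell on 60% fat and was not called on 10% fat (log2 change −0.40 on 60% fat and −0.17 on 10% fat).

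No member passed the test in a diet comparison. Comparing 60% with 10% fat, 0 of 46 members were called under oxygen, where 0.00751% of all genes were, and 0 in room air, where 0.15% were; limma was the tool in each case. At an unadjusted p under 0.05 there were 2 members under oxygen (8.08% of all genes) and 4 in room air (12.2%). Those under oxygen were Psmc3ip and Psmg3. Psmg3 stood at 15.8, 13.2 and 14.8 RPKM on 60% fat, against 11.8, 11.4 and 9.45 on 10% fat, without overlap (log2 change 0.41 ± 0.15 SE, adjusted p = 0.494). In room air they were Psme1, Psmb2, Psmf1 and Psme4. Psme1 stood at 156, 157 and 149.8 RPKM on 60% fat, against 134, 134 and 130.0 on 10% fat, without overlap (log2 change 0.22 ± 0.07 SE, adjusted p = 0.231). Under oxygen 9 members were higher and 1 lower on 60% fat without overlap, against 11.6% and 6.6% of all genes. In room air 3 were higher and 1 lower, against 8.61% and 5.46%. Over the 45 tested proteasome members, the 95% confidence intervals of the diet changes ran from −0.23 to 0.73 under oxygen and from −0.40 to 0.40 in room air, so log2 changes beyond these bounds lay outside every interval.

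The interaction, the oxygen change on 60% fat minus that on 10% fat, asked whether diet altered the oxygen response. It called 0 of 46 members (0.0375% of all genes), with intervals from −0.42 to 0.80 over the proteasome members. At an unadjusted p under 0.05 there were 2 members (10.3% of all genes), the lid genes Psmd12 (log2 change 0.20 ± 0.09 SE, adjusted p = 0.455) and Psmd11 (log2 change 0.21 ± 0.09 SE, adjusted p = 0.477). Libraries of the same exposure and number deviated together, so a second fit took the number as a block inside an exposure. With that block 0 members were called in any of these comparisons, although the calls over all genes grew to 0.766% under oxygen, 3.5% in room air and 1.82% for the interaction. The smallest blocked adjusted p was 0.144 for Psmg3 under oxygen, 0.102 for Psme1 in room air and 0.187 for Psmd11 in the interaction.

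**Figure D5:**
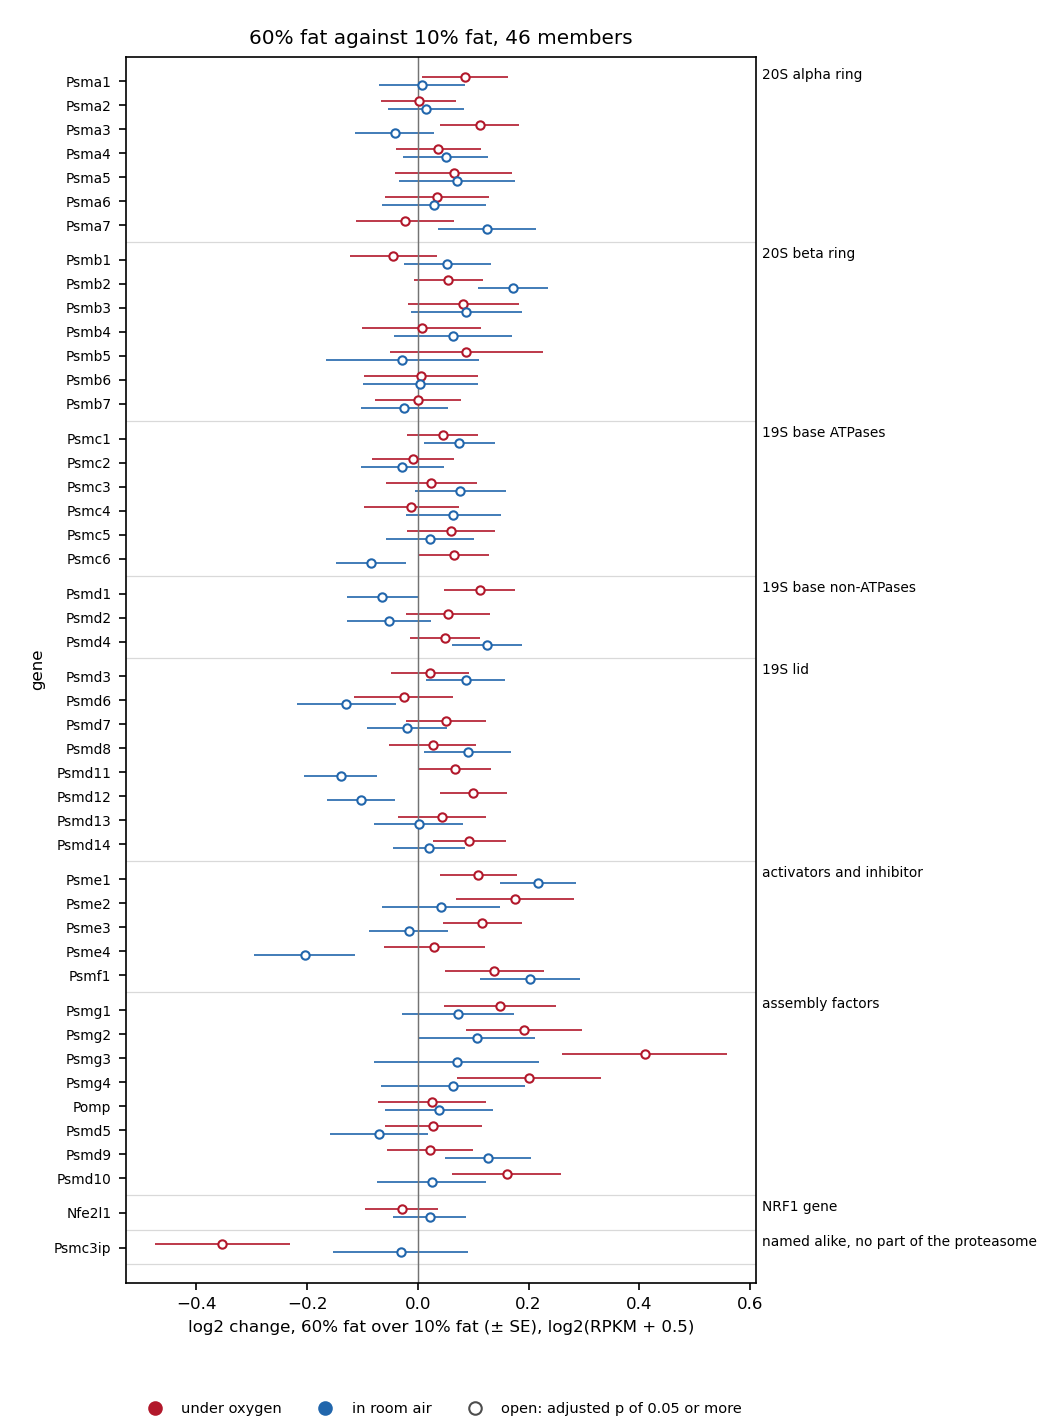
Log2 change of 60% over 10% fat of the 46 tested members, with its SE as a bar, under oxygen (red) and in room air (blue). Every point is open, since no member had an adjusted p under 0.05; Psmg3 under oxygen (0.41) and Psmc3ip under oxygen (−0.35) lie farthest from 0.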

How the data were processed

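RNA of 12 lung samples was sequenced. The submitters' processing notes list bcl2fastq 2.19, TopHat2 2.0.11, mm8 and mm9. RPKM per gene were deposited by the authors; their program was not given in the sources used here. Low-data entries (208) were left out and 85 failed estimates treated as missing. The filter (1 RPKM or more in 3 or more libraries) kept 13324 genes.

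Values were taken as log2(RPKM + 0.5), with no further scaling. The main model was limma 3.58.1 (R 4.3.3) over all 12 libraries, 1 mean per group, with a variance trend (8 residual and 4.26 prior degrees of freedom), two-sided tests and Benjamini-Hochberg adjustment at 0.05 over all genes tested. The model was run on simulated data with independent noise and few genes changed, upward only and in a single group. The data differ from that setting, so this run checked the code and not the calls reported here. No count test was run, since the values are RPKM.

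Members, gene lists and motifs were chosen with earlier results of these data known. Values in every library are given for the 2 members per role with the smallest p in each oxygen comparison, the activators, the inhibitor, the catalytic subunits, Pomp, Nfe2l1, and members called against their role or in a diet comparison. Other genes named are the immunoproteasome subunits and, per list, the 4 with the smallest p, plus Ubqln2 and Ubqln4, which were chosen after their values were seen; 1 gene under this rule is not reported here.

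Libraries of one exposure and the same number had deviations from group means with r of 0.293 to 0.486 (6 pairs), pairs with 1 number across exposures −0.131 to 0.22 (12 pairs). This pairing comes from the data, so the number was fitted as a block within each exposure for comparisons of diet. Rough depth was 18.3 to 24.3 M reads. Promoters come from RefSeq (GRCm38.p6). Figures used matplotlib 3.10.9, pandas 2.3.3 and numpy 2.4.6 in Python 3.11.15.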

Additional observations from a re-analysis of the deposited data

How the results depend on the processing

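Counts of members called kept within 1.5 times of those reported under all 23 alternatives, 22 of them for an oxygen comparison (pseudocount, filters, scaling, variance trend, libraries compared, replicate block, each library left out, and both room-air libraries of number 2 left out, which was chosen after seeing the data because Scgb1a1 was highest there). On 60% fat 20 to 27 members rose and 4 to 5 fell under oxygen; on 10% fat 19 to 27 rose and 4 to 6 fell. Of the 54 oxygen calls none reversed; 37 values over all alternatives lost the threshold and 34 others gained it, and the cause was not tested. Calls lost to quantile normalization on 10% fat were those of Psmd1 (adjusted p = 0.225), Psmd2 (0.246), Psmb4 (0.215), Psmb5 (0.0575) and Psmc2 (0.0727), and on 60% fat that of Psmb2 (0.186). With only the libraries compared, Psmb2 (0.0531) and Psmf1 (0.0732) were lost on 60% fat. Without 60% fat room-air replicate 2, calls were gained for Psma5 (0.00526), Psmb4 (0.00756), Psmc5 (0.0425) and Psmd6 (0.0284) on 60% fat.

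Diet and interaction calls among the members were 0 under every alternative, the replicate block included. Over all genes these counts were unstable. For 60% against 10% fat under oxygen, 1 gene was called and 102 with the replicate block within each exposure (0 to 3 without single libraries); in room air 20, and 466 with that block, 66 after quantile normalization, 193 without both room-air libraries of number 2 and 1 with only the libraries compared (2 to 353 without single libraries); for the interaction 5, and 243 with the block (0 to 45). With the block over all libraries the counts were 6, 60 and 17. Groups of 3 libraries and RPKM without read counts limit the precision.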
